A study of Mus musculus with 24 samples.

Results

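The genes described here are those whose mean level in embryonic mouse diaphragm on embryonic day E12.5 lay above the means of both the earlier and the later stage, or below both. They were chosen by a contrast that set the E12.5 mean against the average of the E11.5 mean and the E16.5 mean, with weights of 1, -0.5 and -0.5, together with the order of the 3 means. Of 19351 genes measured, 10037 had an E12.5 mean outside both others, 4810 above and 5227 below, and the other 9314 had it in between. Among all genes the contrast passed an adjusted p of 0.05 for 2086 (10.8%). These calls comprised 897 genes with the E12.5 mean above both others (4.64% of all genes), 401 with it below both (2.07%) and 788 with it in between (4.07%).

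All embryos were C57BL/6J mice with no genotype or treatment given, with 8 arrays of the Affymetrix Mouse Gene 1.0 ST type for each stage. At E11.5 and E12.5 the tissue was the pleuroperitoneal fold, captured by laser from transverse sections through the mid-thorax. At E16.5 it was the muscularised diaphragm, captured from sagittal sections. The labels do not say that arrays of a stage came from different embryos, so p-values measure the spread between these 8 samples, which may in part be technical. Values are log2 units, where a difference of 1 is a 2-fold difference, and errors of a mean are SD over 8 arrays. In such bulk samples, fewer cells of a type and less RNA per cell cannot be told apart.

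The pleuroperitoneal folds are a pair of mesenchymal ridges that arise beside the developing lungs and liver and give the diaphragm its connective tissue. Muscle progenitors leave the cervical somites, enter the folds under the action of Hgf on its receptor Met, and switch on the MyoD family of transcription factors. Folds and muscle then spread over the liver surface, and the muscle cells fuse and assemble sarcomeres. E12.5 lies in the phase of progenitor entry and fold expansion, and E16.5 after the muscle sheet has formed.

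Defining markers of muscle and fold tissue were present. The mean over 61 sarcomere genes was 7.91 to 8.64 in the E11.5 arrays, 7.98 to 9.90 in the E12.5 arrays and 10.91 to 11.64 at E16.5. The mean over 33 genes of fold mesenchyme and muscle connective tissue lay between 8.87 and 9.07 at E11.5, between 8.68 and 9.01 at E12.5, and between 8.04 and 8.17 at E16.5. Liver transcripts varied within E12.5. The mean over 28 hepatocyte plasma protein genes was 10.19 in replicate 2 and 8.28 in replicate 4, while the remaining 6 arrays ran from 6.99 to 7.48. It was 6.43 to 6.71 at E11.5 and 7.96 to 9.52 at E16.5. The E16.5 arrays formed 2 sets, replicates 1 to 4 and 5 to 8: deviations from the stage mean correlated at 0.00 to 0.19 over genes within a set and at -0.41 to -0.20 across sets.

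The contrast was carried mainly by the difference from E16.5. Of the 897 genes called above both, 856 had their E12.5 mean nearer to E11.5, and 874 passed an adjusted p of 0.05 for E12.5 minus E16.5, while 12 did so for E12.5 minus E11.5. Their median difference was 0.17 from E11.5 and 0.64 from E16.5. The gap to the nearer stage was under 0.1 for 286 of them, 0.5 or more for 50, and 1 or more for 0, the largest being 0.98. Of the 401 genes called below both, 364 lay nearer to E11.5, 375 passed for E12.5 minus E16.5 and 0 for E12.5 minus E11.5. Their median differences were -0.13 and -0.73, and 4 had a gap of 0.5 or more, up to -0.78. A gene in the dimmest 25% of its array is not told apart from background here, and this held in over 4 of the 8 E12.5 arrays for 11 of the 897 and 103 of the 401.

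**Figure D1:**
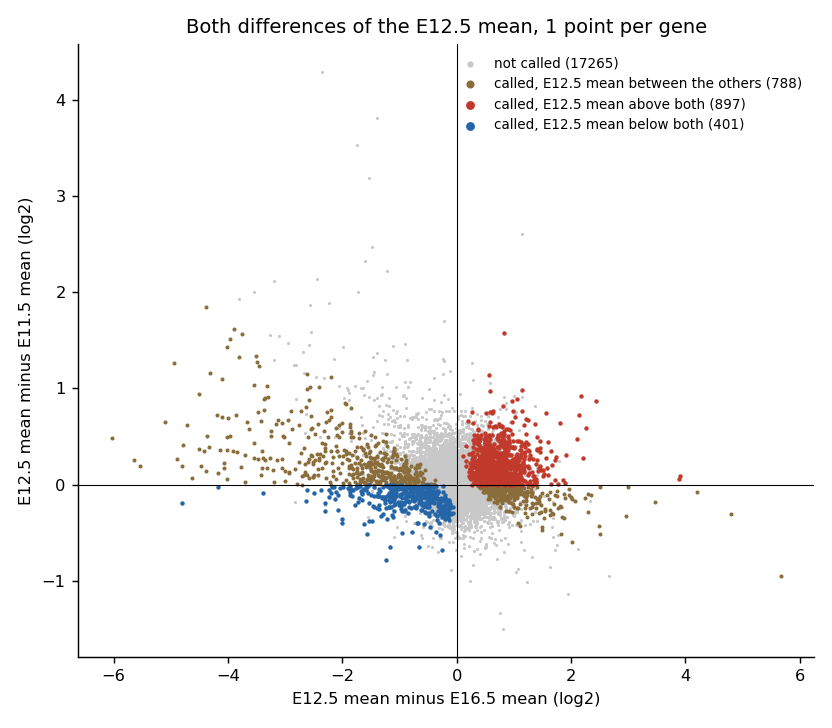
Each point is 1 of the 19351 genes, placed by the E12.5 mean minus the E16.5 mean (x axis, log2) and minus the E11.5 mean (y axis, log2) and coloured by its call. Most of the 897 red and 401 blue points lie near the horizontal line, with medians of 0.17 and -0.13 on the y axis against 0.64 and -0.73 on the x axis.

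The order of the means is finely cut at its edge. Ppip5k2, an inositol phosphate kinase, had means of 9.32, 9.32 and 8.17 at E11.5, E12.5 and E16.5 and was just inside the genes above both. Pkhd1, which encodes the ciliary protein fibrocystin, had 6.50, 6.50 and 7.48 and was just inside those below both. Sned1, an extracellular matrix glycoprotein, had 7.93, 7.93 and 7.32 and was just outside. The contrast weights the other stages equally although E12.5 is 1 day from E11.5 and 4 days from E16.5. With weights of -0.8 and -0.2, which place the comparison on the straight line between those stages at E12.5, 28 genes passed, 19 of them above both and 2 below. All 19 were among the 897.

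A stricter question is whether E12.5 differed from each neighbour. When both differences had to pass in 1 test, limma called 0 genes above both and 0 below, with a smallest adjusted p of 0.907; at an unadjusted p of 0.05 these were 346 and 123. When each difference was adjusted over all genes on its own, an alternative chosen after the data had been seen, 9 genes (0.0465%) stood above both and 0 below. The differences taken singly passed for 75 genes (0.388%) from E11.5 and for 5241 (27.1%) from E16.5. The 9 genes were Rspo3, Fst, Myc, Myod1, Dtymk, Cdkn2aipnl, Ercc8, Batf and Cyp7b1. They include 2 secreted signal modulators, a muscle determination factor and the growth regulator Myc.

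Rspo3, a secreted protein that strengthens Wnt signalling through Lgr receptors, had the largest difference from E11.5 of these genes. Its log2 values ran from 6.56 to 8.82 at E11.5 (median 7.51), 8.19 to 9.99 at E12.5 (median 9.28), and 8.25 to 8.59 at E16.5 (median 8.48). Of the 8 E12.5 arrays, 7 lay above every array of E11.5 and 7 above every array of E16.5, the exception being the lowest, which lay below all E16.5 arrays. E12.5 exceeded E11.5 by 1.58 (SE 0.24, adjusted p = 0.00282) and E16.5 by 0.82 (SE 0.24, adjusted p = 0.0124). On the list of Wnt genes, the R-spondin receptor Lgr5 was also called above both, with a contrast of 0.65 (SE 0.14, adjusted p = 0.00238) as was the Frizzled receptor Fzd1, with 0.48 (SE 0.10, adjusted p = 0.00252).

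Fst encodes follistatin, which binds activins and myostatin and keeps them from their receptors. It ranged from 7.19 to 7.66 at E11.5 (median 7.51), 7.78 to 8.68 at E12.5 (median 8.14) and 7.02 to 8.22 at E16.5 (median 7.59). No E12.5 array overlapped with E11.5, and 3 of 8 lay above all E16.5 arrays. The 2 differences were 0.77 (SE 0.15, adjusted p = 0.0185) and 0.64 (SE 0.15, adjusted p = 0.00167).

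Myc, the transcription factor that drives growth and ribosome production, was the single gene of all 19351 whose E12.5 arrays overlapped with neither other stage from above, and 0 genes did so from below. Its values were 9.09 to 9.64 at E11.5 (median 9.39), 9.75 to 10.32 at E12.5 (median 9.99) and 8.32 to 9.58 at E16.5 (median 8.76). E12.5 was higher by 0.62 (SE 0.13, adjusted p = 0.0285) and by 1.18 (SE 0.13, adjusted p = 6.62e-08). Its relative Mycn differed by -0.04 from E11.5 and 0.49 from E16.5, and its contrast of 0.23 missed the threshold (SE 0.08, adjusted p = 0.0595). When E16.5 replicate 8, the highest of that stage for Myc at 9.58, was left out, Myc passed the test of both differences, the 1 gene to do so under any alternative run.

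Myod1 commits cells to the muscle lineage. It ran from 7.92 to 9.19 at E11.5 (median 8.65), 8.63 to 10.01 at E12.5 (median 9.39) and 8.74 to 9.40 at E16.5 (median 8.81). At E12.5, 7 of 8 arrays exceeded every E11.5 array, 3 exceeded every E16.5 array, and the lowest was below all of E16.5. The differences were 0.74 (SE 0.16, adjusted p = 0.037) and 0.52 (SE 0.16, adjusted p = 0.0143).

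The remaining genes of the 9 had smaller differences. Dtymk, a kinase that makes thymidine nucleotides for DNA synthesis, ran from 10.69 to 11.11 at E12.5, and exceeded E11.5 by 0.43 and E16.5 by 0.91. Cyp7b1, an oxysterol hydroxylase of liver and other tissues, ran from 6.57 to 7.55 at E12.5. It was below the lower quartile in 6 of 8 arrays at E11.5 and 5 of 8 at E16.5, so its fitted differences of 0.65 and 0.58 are against values not told apart from background. Ercc8, a factor of transcription-coupled DNA repair, exceeded them by 0.48 and 0.41, Cdkn2aipnl by 0.47 and 0.32, and Batf, an AP-1 family transcription factor, by 0.39 and 0.28. Without E12.5 replicates 2 and 4, the arrays rich in liver transcripts, each of the 9 kept its contrast call, with adjusted p from 8.81e-05 for Myc and Dtymk to 0.00769 for Batf. With the hepatocyte list mean as a covariate the 9 kept their contrast calls too, but the gap to the nearer stage went from 0.82 to 0.38 for Rspo3 and from 0.52 to 0.24 for Myod1. For these 2 genes, leaving out replicates 2 and 4 instead gave gaps of 1.05 and 0.62. The covariate itself differed by stage, at 6.43 to 6.71 in E11.5 arrays and 7.96 to 9.52 in E16.5 arrays.

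**Figure D2:**
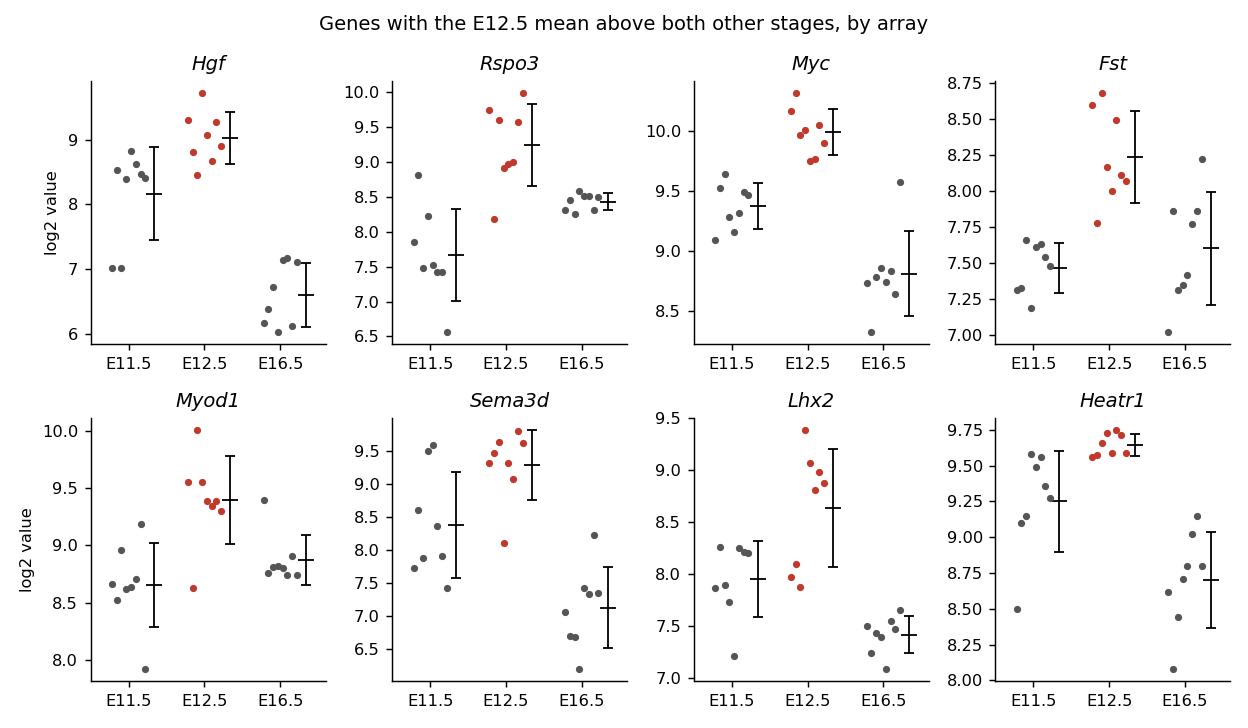
Log2 values (y axes) of 8 genes called above both, 1 point per array in order of replicate number for E11.5, E12.5 (red) and E16.5; the bar beside each group is mean and SD over 8 arrays. Myc alone shows no overlap of E12.5 with either stage, while Lhx2 and Sema3d have E12.5 arrays inside the E11.5 range.

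By size of the gap to the nearer stage, the leading genes above both were Cpm, Sema3d, Smyd3, Hgf, Rspo3, Lipa, Irak1bp1, Akr1b8, Socs2, Hsd3b6, Lhx2 and Prokr2. Hgf, the ligand that draws muscle progenitors into the folds, ranged from 7.01 to 8.83 at E11.5 (median 8.43), 8.45 to 9.72 at E12.5 (median 8.99) and 6.02 to 7.17 at E16.5 (median 6.55). All 8 E12.5 arrays lay above E16.5 and 5 above E11.5, where 2 arrays stood near 7.0 and the rest above 8.3. Its contrast was 1.65 (SE 0.23, adjusted p = 2.36e-05), made of 0.87 from E11.5 (adjusted p = 0.155) and 2.43 from E16.5 (adjusted p = 8.08e-08). Its receptor Met was not called, with E12.5 values of 7.13 to 7.96, 6.68 to 8.63 at E11.5 and 7.6 to 8.87 at E16.5.

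Sema3d, a secreted semaphorin that steers axons and migrating cells, ran from 7.43 to 9.58 at E11.5 (median 8.13), 8.11 to 9.80 at E12.5 (median 9.39) and 6.2 to 8.22 at E16.5 (median 7.20). E12.5 overlapped with E11.5 in 5 of 8 arrays and with E16.5 in 1. The contrast was 1.54 (SE 0.27, adjusted p = 0.000386). Lhx2, a LIM homeobox transcription factor, ran from 7.21 to 8.26 at E11.5 (median 8.05), 7.88 to 9.39 at E12.5 (median 8.84) and 7.09 to 7.66 at E16.5 (median 7.45). All 8 E12.5 arrays exceeded E16.5 and 5 exceeded E11.5, with a contrast of 0.95 (SE 0.17, adjusted p = 0.000405).

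The other leading genes have diverse products. Smyd3, a lysine methyltransferase, had E12.5 values of 8.09 to 9.83 against 7.51 to 9.05 at E11.5 and 7.36 to 8.84 at E16.5, with a contrast of 0.91 (SE 0.22, adjusted p = 0.00684). Hsd3b6, a steroid dehydrogenase, had 7.65 to 9.13 against 6.86 to 8.63 and 5.59 to 6.51, the last below the lower quartile in all 8 arrays; its contrast was 1.43 (SE 0.18, adjusted p = 7.7e-06). Socs2, a feedback inhibitor of cytokine and growth hormone signalling, spread widely at E12.5, from 8.09 to 10.26, and had a contrast of 1.15 (SE 0.27, adjusted p = 0.00587). Cyp1b1, an oxidase of steroids and retinoids chosen after its values were seen, ran from 8.39 to 9.26, 8.93 to 10.06 and 6.94 to 7.71, with 6 of 8 E12.5 arrays above all of E11.5 and 8 above all of E16.5 (contrast 1.29, SE 0.13, adjusted p = 6.58e-07). Prokr2, a prokineticin receptor, had 0.96 (SE 0.22, adjusted p = 0.00521), and Akr1b8, an aldo-keto reductase, 0.95 (SE 0.21, adjusted p = 0.00414), the latter against E16.5 values below the lower quartile in all 8 arrays and E11.5 values below it in 4.

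Another 3 of the 12 lost their call when the liver-rich arrays were left out. The membrane carboxypeptidase Cpm, with the largest gap of 0.98 and a contrast of 1.06 (SE 0.29, adjusted p = 0.0174), had a contrast of 0.86 (adjusted p = 0.0914) without E12.5 replicates 2 and 4, and its call was also lost without E12.5 replicate 7. For the lysosomal lipase Lipa the contrast was 0.82 with all arrays (adjusted p = 0.0406) and 0.84 without the pair (adjusted p = 0.0567), so its size did not shrink. For Irak1bp1, which binds a kinase of interleukin signalling, it was 0.87 (adjusted p = 0.0302) and 0.68 (adjusted p = 0.144). Lipa was also lost under requantiling and in 12 of the 24 fits that left out a single array. Over all genes, 614 of the 897 and 244 of the 401 were called again without those arrays.

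Genes of cell proliferation formed a large group. Of 53 cell cycle genes, 18 were called above both (34.0%, against 4.64% of all genes) and 1 below (1.89%, against 2.07%). The list's median difference was 0.03 from E11.5 and 0.74 from E16.5, against -0.03 and 0.02 over all genes, so its E12.5 level stood close to E11.5 and above E16.5. The 18 comprise the replication factors Pcna, Mcm2, Mcm3, Mcm6, Mcm7, Cdc6, Gins1 and Gins2, the nucleotide enzymes Rrm2 and Tyms, the cyclins Ccne1 and Ccnd2, and the mitotic genes Cdk1, Cdc20, Cdc25c, Bub1, Birc5 and Cenpa. Ccne1, the cyclin of entry into DNA synthesis, had the largest gap, 0.39, with values of 8.65 to 9.77, 9.46 to 9.99 and 8.16 to 9.39 at E11.5, E12.5 and E16.5. All 8 of its E12.5 arrays exceeded E16.5 and 3 exceeded E11.5, for a contrast of 0.68 (SE 0.14, adjusted p = 0.00242). The single gene called below both was Cdkn2c, an inhibitor of cyclin D kinases, with a contrast of -0.72 (SE 0.22, adjusted p = 0.0357). Cdkn2c kept its call in 16 of the 24 fits that left out 1 array. It was below the lower quartile in 3 of 8 arrays at E11.5 and 4 of 8 at E12.5. Mki67, the widely used proliferation marker, was not called, at 10.48 to 10.86, 10.44 to 11.07 and 9.83 to 10.86. The count of 18 became 12, 13 and 11 under requantiling, median centring and 75th percentile centring, 12 without the liver-rich arrays and 11 without E12.5 replicate 2 alone.

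The upstream sequence of 1 mitotic and 1 replication gene of this group is shown because promoters of cell cycle genes share short motifs: CCAAT boxes bound by NF-Y, E2F sites, and the cell cycle homology region (CHR). The 250 bases before the annotated start, from RefSeq on mouse build GRCm38.p6, read 5′ to 3′ along the gene's strand. Cdk1 lies at chr10:69352913-69353162 and Mcm6 at chr1:128359706-128359955, both on the minus strand. Capitals mark CCAAT, TTTNGCGC and TTTGAA on either strand.
Cdk1: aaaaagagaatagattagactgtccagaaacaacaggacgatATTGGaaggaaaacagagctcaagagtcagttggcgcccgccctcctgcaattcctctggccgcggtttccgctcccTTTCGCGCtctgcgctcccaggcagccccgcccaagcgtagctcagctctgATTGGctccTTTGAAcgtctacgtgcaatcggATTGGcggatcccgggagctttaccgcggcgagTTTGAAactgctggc
Mcm6: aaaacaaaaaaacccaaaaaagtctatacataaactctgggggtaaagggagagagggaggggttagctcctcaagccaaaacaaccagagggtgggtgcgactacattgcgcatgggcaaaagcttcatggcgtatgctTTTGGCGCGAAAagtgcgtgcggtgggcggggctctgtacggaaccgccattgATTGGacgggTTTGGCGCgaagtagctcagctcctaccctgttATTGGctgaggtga
Cdk1 holds 3 CCAAT, 1 E2F and 2 CHR matches, and Mcm6 holds 2 CCAAT and 3 E2F matches, a pair of which overlap on opposite strands, and 0 CHR. Cdk1 ran from 9.63 to 11.03 at E11.5, 10.15 to 10.87 at E12.5 and 9.39 to 10.00 at E16.5, with all 8 E12.5 arrays above E16.5 and 0 above E11.5 (contrast 0.46, SE 0.14, adjusted p = 0.03). Its call was lost under 75th percentile centring and without E12.5 replicate 2, 6, 7 or 8. Mcm6, a subunit of the replicative helicase, ran from 10.30 to 10.73, 10.38 to 11.08 and 8.95 to 10.09, with all 8 E12.5 arrays above E16.5 and 2 above E11.5 (contrast 0.62, SE 0.11, adjusted p = 0.000566). Of the 18 called cell cycle genes, 14 had a promoter entry. CCAAT was present in 10 of these (71.4%), in 19 of 26 other cell cycle genes (73.1%) and in 37.5% of all 27025 promoters. The E2F motif was present in 2 of 14 (14.3%), which are the promoters shown, in 1 of 26 (3.85%) and in 1.31% of all promoters, and CHR in 3 of 14 (21.4%), 6 of 26 (23.1%) and 18.3%.

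Factors of ribosome assembly were listed after the values had been seen, so their count is a description. Of 64 genes, 33 were called above both (51.6%, against 4.64% of all genes) and 0 below. Both differences were positive for 58 of the 64, with medians of 0.19 from E11.5 and 0.55 from E16.5. The mean over the list ran from 9.20 to 9.57 at E11.5, 9.54 to 9.75 at E12.5 and 8.91 to 9.20 at E16.5, so that E12.5 and E11.5 overlapped between 9.54 and 9.57. Heatr1, a component of the small subunit processome, showed this at the level of 1 gene: its values ran from 8.50 to 9.58 at E11.5 (median 9.32), 9.56 to 9.75 at E12.5 (median 9.63) and 8.08 to 9.15 at E16.5 (median 8.75). All 8 E12.5 arrays exceeded E16.5 and 6 exceeded E11.5, for a contrast of 0.67 (SE 0.12, adjusted p = 0.000491). Fbl, the methyltransferase fibrillarin of the nucleolus, ran from 11.10 to 11.98, 11.75 to 11.97 and 10.37 to 11.25, with 0 of 8 E12.5 arrays above E11.5 and all 8 above E16.5 (contrast 0.68, SE 0.10, adjusted p = 7.92e-05).

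Urb2, a large subunit assembly factor, had a contrast of 0.75 (SE 0.17, adjusted p = 0.00413). Nop16 and Nhp2, which act in assembly of the large subunit and in pseudouridylation of RNA, had 0.62 (SE 0.18, adjusted p = 0.0272) and 0.51 (SE 0.12, adjusted p = 0.00623). Of these and Heatr1 and Fbl, Nop16 and Nhp2 lost their call without the liver-rich arrays, with contrasts of 0.54 (adjusted p = 0.0956) and 0.40 (adjusted p = 0.0502). The list's count became 29, 30 and 26 under the 3 scalings, 21 without the liver-rich arrays and 18 without E16.5 replicates 1 to 4. The E-box CACGTG bound by Myc and its partners was present in 2 of 31 promoters of the called genes (6.45%), against 6.86% of all promoters. Its share was 8.12% in promoters of the genes tested and 10.2% (75 of 737) in those of all genes called above both.

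Splicing and ribosomal protein genes gave counts that depended on scaling. Of 39 splicing factors, 11 were called above both (28.2%, against 4.64% of all genes) and 0 below, including Srsf1, Srsf2, Srsf3 and Srsf4 of the SR family and U2af1, which recognises the 3′ splice site. Their median difference was -0.01 from E11.5 and 0.45 from E16.5. U2af1, with the largest gap, ran from 11.33 to 12.15, 11.89 to 12.17 and 11.40 to 12.10, overlapping broadly (contrast 0.35, SE 0.09, adjusted p = 0.0107). The 11 became 3, 5 and 2 under requantiling, median centring and 75th percentile centring, and 7 without E12.5 replicate 7. Of 23 ribosomal proteins, 3 were called above both, or 13% against 4.64% (Rplp0, Rplp1 and Rps3, contrasts of 0.19, 0.18 and 0.15), which became 4, 2 and 0 under those scalings and 0 without the liver-rich arrays.

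**Figure D3:**
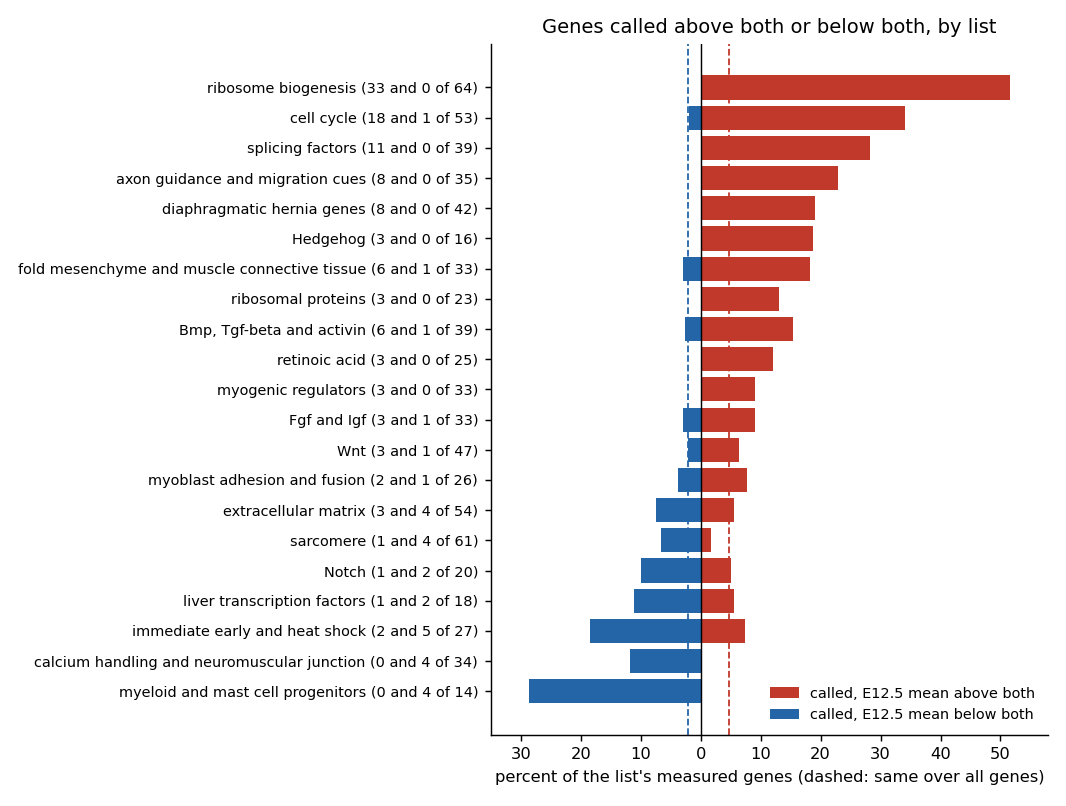
Percent of each list's measured genes called above both (red, to the right) or below both (blue, to the left), for lists with 3 or more calls; counts above both, counts below both and list size stand beside each name, and dashed lines mark 4.64% and 2.07% over all genes. Ribosome biogenesis (33 of 64) and cell cycle (18 of 53) reach furthest right, and myeloid and mast cell progenitors (4 of 14) furthest left. The ribosome biogenesis list was written after these values were seen, so its place is a description.

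Genes of the fold mesenchyme and those known from diaphragmatic hernia gave smaller counts. Of 33 mesenchyme genes 6 were called above both (18.2%) and 1 below (3.03%), and of 42 hernia genes 8 above (19%) and 0 below, against 4.64% and 2.07% of all genes. The 6 and 8 share Gata4, Pdgfra, Hgf and Hlx; the mesenchyme list adds Osr1 and Lhx2, and the hernia list Frem1, Myod1, Msc and Gli2. Their list medians were -0.17 and -0.03 from E11.5, and 0.80 and 0.53 from E16.5, so the median member had E12.5 below E11.5. The counts above both stayed at 6 and 8 under the 3 scalings. Below both, the mesenchyme count stayed at 1, while the hernia count of 0 became 2, 1 and 2 under requantiling, median centring and 75th percentile centring.

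Pdgfra, the receptor for platelet-derived growth factor in mesenchyme, ran from 10.43 to 10.99 at E11.5 (median 10.81), 10.61 to 11.25 at E12.5 (median 10.84) and 8.68 to 9.50 at E16.5 (median 9.45). All 8 E12.5 arrays exceeded E16.5 and 3 exceeded E11.5 (contrast 0.85, SE 0.10, adjusted p = 5.49e-06). Osr1, a zinc finger factor of muscle connective tissue, ran from 8.28 to 9.96, 9.08 to 9.92 and 7.67 to 8.82; its E12.5 arrays lay within the E11.5 range and above all of E16.5 (contrast 0.88, SE 0.19, adjusted p = 0.00273). Hlx, a homeobox factor of visceral mesenchyme whose loss causes hernia in mice, ran from 7.75 to 8.92, 8.43 to 9.33 and 7.68 to 8.30, with 2 arrays above E11.5 and 8 above E16.5 (contrast 0.61, SE 0.13, adjusted p = 0.00333). Frem1, a basement membrane protein, had 0.95 (SE 0.21, adjusted p = 0.00343), and Gata4, a zinc finger factor required in the folds, 0.58 (SE 0.12, adjusted p = 0.002).

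Other hernia genes had E12.5 between the other stages. Wt1, a factor of the mesothelium and folds, was called with its E12.5 mean between the others: 10.29 to 10.75, 9.95 to 10.71 and 8.2 to 9.25. Nr2f2 (contrast 0.33, adjusted p = 0.0607), the Gata cofactor Zfpm2 (0.33, adjusted p = 0.205) and the T-box factor Tbx5 (0.52, adjusted p = 0.0987) were not called. Prrx1, a homeobox factor of limb and body wall mesenchyme, was the 1 mesenchyme gene below both, described with the genes below both.

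Among 33 myogenic regulators 3 were called above both (9.09%, against 4.64% of all genes) and 0 below. Besides Myod1 these were Msc, a bHLH factor of muscle progenitors, and Pax7, the factor of muscle stem cells. Msc ran from 9.15 to 9.90, 9.62 to 10.32 and 9.19 to 9.76, with 7 of 8 E12.5 arrays above all of E11.5 and 7 above all of E16.5; its differences were 0.44 (SE 0.12, adjusted p = 0.113) and 0.54 (SE 0.12, adjusted p = 0.00108). Pax7 exceeded both by 0.27 (contrast 0.27, SE 0.08, adjusted p = 0.0379), a call lost under requantiling and 75th percentile centring and kept in 13 of the 24 fits that left out 1 array. Myog (contrast 0.12, adjusted p = 0.616), Myf5 (-0.02, adjusted p = 0.959), Pax3 (0.10, adjusted p = 0.755) and Lbx1 (-0.05, adjusted p = 0.544) were not called. For Myog, the factor of differentiation, the 8 values ran from 9.13 to 10.29 at E11.5, 9.71 to 10.80 at E12.5 and 10.52 to 10.92 at E16.5, with the E12.5 mean in between.

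Guidance cues and signalling pathways contributed in parts. Of 35 guidance and migration genes, 8 were called above both (22.9%, against 4.64% of all genes) and 0 below: Slit2 and its receptor Robo2, the semaphorins Sema3a, Sema3d and Sema6a, the semaphorin receptor Plxna1, the ephrin receptor Epha3, and Hgf. Slit2 ran from 9.06 to 9.92, 9.11 to 10.51 and 7.87 to 8.93, with 2 arrays above E11.5 and all 8 above E16.5 (contrast 0.80, SE 0.15, adjusted p = 0.000678). Sema6a had 0.53 (SE 0.09, adjusted p = 0.000314), and Epha3 0.72 (SE 0.18, adjusted p = 0.00923). Sema3a and Epha3 exceeded E11.5 by only 0.05 and 0.09. The list medians were -0.08 from E11.5 and 0.37 from E16.5, so the median member had E12.5 below E11.5. Robo1, the related receptor, was called with its E12.5 mean between the others, and Slit3 (0.29, adjusted p = 0.0769), Cxcl12 (0.33, adjusted p = 0.107) and Cxcr4 (-0.30, adjusted p = 0.0834) were not called.

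Of 39 genes of the Bmp, Tgf-beta and activin pathways, 6 were called above both (15.4%, against 4.64%) and 1 below (2.56%, against 2.07%). Gdf10, a ligand of this family, ran from 9.39 to 10.56, 9.88 to 10.70 and 8.28 to 8.92, with 1 array above E11.5 and all 8 above E16.5 (contrast 1.01, SE 0.12, adjusted p = 5.18e-06). The antagonist Chrdl1 had 0.50 (SE 0.14, adjusted p = 0.0243), with gaps of 0.42 and 0.57 that were close in size. Fgf9, an epithelial and mesothelial growth factor, ran from 6.95 to 8.65, 7.82 to 9.02 and 7.12 to 7.79, with 3 arrays above E11.5 and all 8 above E16.5 (contrast 0.81, SE 0.18, adjusted p = 0.00338), and the receptor Fgfr2 had 0.34 (SE 0.10, adjusted p = 0.027). With the binding protein Igfbp4 they were the 3 of 33 Fgf and Igf genes above both (9.09%, against 4.64%). Igfbp4 lost its call under all 3 scalings and kept it in 8 of the 24 fits that left out 1 array. The list's 3 became 2, 2 and 1 under the scalings, 1 without E12.5 replicate 3, and 5 without replicate 2.

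Of 47 Wnt genes 3 were called above both (6.38%) and 1 below, near the shares over all genes; the 3 became 5 without E11.5 replicate 7 or E12.5 replicate 2. Of 16 Hedgehog genes 3 were called above both (18.8%, against 4.64% of all genes). They were the transcription factor Gli2 (contrast 0.49, SE 0.10, adjusted p = 0.00176), the co-receptor Boc and the ligand exporter Disp1. This count became 1, 3 and 1 under the 3 scalings, and 1 without E12.5 replicate 5 or 7. In the retinoic acid pathway 3 of 25 genes were called above both (12%, against 4.64%): the synthesis enzyme Rdh10, the carrier Crabp2 and the degrading enzyme Cyp26a1. Their count became 1, 3 and 0 under the scalings and 1 without E12.5 replicate 8. Crabp2 had E12.5 nearly level with E11.5: it ran from 11.37 to 12.39, 11.73 to 12.30 and 7.84 to 9.52, with differences of 0.06 and 3.89. Rdh10 was likewise nearly level, with differences of 0.05 and 1.86 and 0 of 8 E12.5 arrays above all of E11.5. Cyp26a1 differed by 0.19 and 0.50. It was below the lower quartile in 6 of 8 arrays at E11.5 and 7 of 8 at E16.5, values not told apart from background. Aldh1a2, the main synthesis enzyme of the folds, had E12.5 values of 7.62 to 10.93 and was not called (contrast 0.73, SE 0.30, adjusted p = 0.135).

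Genes with the E12.5 mean below both had smaller gaps. The leading 12 were Rgs2, Fbxo31, Ubxn2a, Emc2, Prrx1, Tcim, Dock10, Ddc, Lyz1, Casd1, Zbtb20 and Apool. Rgs2, which limits G protein signalling, ran from 8.90 to 10.38 at E11.5 (median 9.65), 7.47 to 9.32 at E12.5 (median 9.08) and 9.77 to 10.44 at E16.5 (median 10.10). All 8 E12.5 arrays lay below E16.5 and 2 below E11.5. Its contrast was -1.01 (SE 0.18, adjusted p = 0.000659), made of -0.78 (adjusted p = 0.114) and -1.24 (adjusted p = 6.72e-05).

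Prrx1 ran from 9.05 to 9.86 at E11.5 (median 9.55), 8.02 to 10.04 at E12.5 (median 9.02) and 9.08 to 10.38 at E16.5 (median 10.00). E12.5 spread over both other ranges, with 4 of 8 arrays below all of E11.5, 5 below all of E16.5 and 1 above all of E11.5 (contrast -0.73, SE 0.18, adjusted p = 0.0104). Emc2, a subunit of the membrane protein complex of the endoplasmic reticulum, ran from 9.62 to 10.90, 8.75 to 10.04 and 10.74 to 11.35, with 5 arrays below E11.5 and 8 below E16.5 (contrast -1.04, SE 0.15, adjusted p = 4.44e-05). Ubxn2a, an adaptor of the p97 unfolding enzyme, held a narrow E12.5 range of 8.85 to 9.26 against 8.81 to 10.28 and 9.53 to 11.05 (contrast -0.91, SE 0.17, adjusted p = 0.000659).

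Ddc, the decarboxylase that makes dopamine and serotonin, ran from 8.07 to 8.89, 7.46 to 8.53 and 9.14 to 9.98, with 4 arrays below E11.5 and 8 below E16.5 (contrast -1.02, SE 0.13, adjusted p = 5.99e-06). Zbtb20, a zinc finger repressor, had the contrast with the smallest p among these 12, -1.20 (SE 0.12, adjusted p = 4.29e-07), of which -0.40 was from E11.5 and -2.01 from E16.5. Fbxo31, an F-box protein, kept its call in 12 of the 24 fits that left out 1 array. It lost it, like Tcim and the exchange factor Dock10, also without the liver-rich pair. There the contrast was -0.61 for Fbxo31 against -0.65 with all arrays (adjusted p = 0.112), -0.52 against -0.64 for Tcim (adjusted p = 0.0644) and -0.36 against -0.45 for Dock10 (adjusted p = 0.0789).

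**Figure D4:**
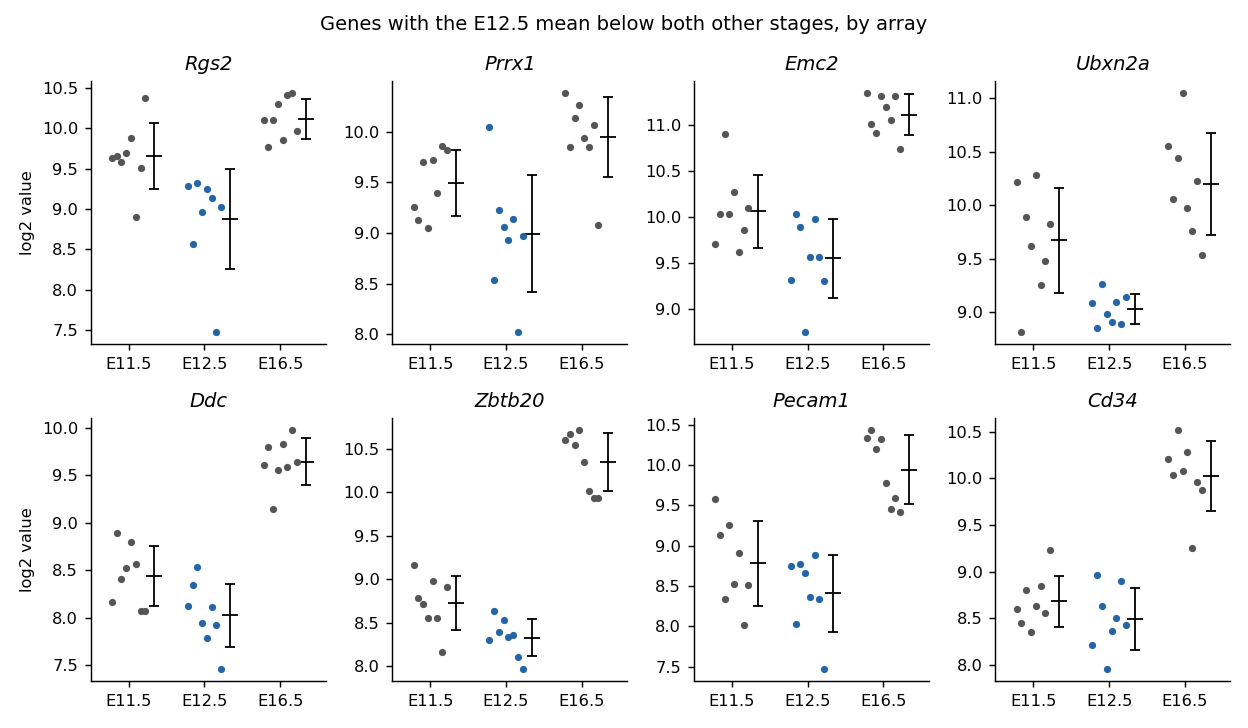
Log2 values (y axes) of 8 genes called below both, 1 point per array in order of replicate number for E11.5, E12.5 (blue) and E16.5, with mean and SD over 8 arrays beside each group. In each panel E12.5 arrays overlap with E11.5, and in all but Prrx1 they lie wholly below E16.5.

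Contractile genes were mostly between the stages: 35 of 61 sarcomere genes were called with the E12.5 mean in between, against 4.07% of all genes. Of the 61 sarcomere genes 4 were called below both (6.56%, against 2.07% of all genes) and 1 above (1.64%). The list medians were 0.69 from E11.5 and -2.62 from E16.5. The 4 were Myoz1, Xirp1, Ankrd2 and Ankrd23, whose differences from E11.5 were -0.03, -0.01, -0.08 and -0.10. They became 5, 5 and 8 under the scalings, 2 without the liver-rich arrays, and 2 without E11.5 replicate 7, E12.5 replicate 2 or E12.5 replicate 8. The 1 above both, tropomyosin Tpm3 at 0.20, reversed to -0.36 when its probe sets were averaged. Of 34 genes of calcium handling and the neuromuscular junction 4 were called below both (11.8%) and 0 above. These were the calcium channel subunits Cacna2d1 (contrast -1.18, SE 0.24, adjusted p = 0.00162) and Cacnb1 (-1.17, SE 0.16, adjusted p = 2.21e-05), the calcium buffer Pvalb and the potassium channel Kcnj12. Cacna2d1 ran from 8.65 to 10.36, 7.58 to 9.90 and 10.43 to 11.27, with 2 arrays below E11.5 and 8 below E16.5. Pvalb and Kcnj12 were nearly level with E11.5, with differences of -0.09 and -0.05. Pvalb was below the lower quartile in 7 of 8 arrays at both E11.5 and E12.5, so both stages were there not told apart from background.

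A list of immediate early and heat shock genes, which respond quickly to stimulation and to tissue handling, gave 5 of 27 below both (18.5%, against 2.07% of all genes) and 2 above (7.41%, against 4.64%). The 5 were Fos, Ier3, Atf3, Dusp1 and Zfp36, and the 2 were Myc and the chaperone Hsp90aa1. Dusp1, a phosphatase of MAP kinases, ran from 7.98 to 8.62, 7.61 to 8.41 and 8.21 to 9.71, with 2 arrays below E11.5 and 5 below E16.5 (contrast -0.69, SE 0.16, adjusted p = 0.00755). Fos, the AP-1 subunit, was dim at 6.24 to 6.69 in E12.5, with 5 of 8 arrays below the lower quartile (contrast -0.32, SE 0.09, adjusted p = 0.0251). The 5 became 1 without E16.5 replicates 1 to 4 and stayed at 5 without replicates 5 to 8.

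Myeloid and endothelial marker lists had their highest median level at E16.5. Of 14 myeloid and mast cell genes 4 were called below both (28.6%, against 2.07% of all genes) and 0 above. The 4 were the granule proteases Elane, Ctsg and Cpa3, and Cd34. Ctsg and Cpa3 were below the lower quartile in at least 7 of 8 arrays at both E11.5 and E12.5, so both stages were there not told apart from background. Cd34, which is also an endothelial and fibroblast marker, ran from 8.35 to 9.23, 7.96 to 8.96 and 9.25 to 10.52 (contrast -0.86, SE 0.14, adjusted p = 0.00015). The mean over the list ran from 6.65 to 6.90, 6.68 to 7.15 and 7.12 to 7.75. Of 22 endothelial genes 1 was called below both (4.55%, against 2.07%). It was Pecam1, at 8.01 to 9.58, 7.47 to 8.88 and 9.42 to 10.44 (contrast -0.96, SE 0.19, adjusted p = 0.00192). Means of 16 of the 22 lay below both, against 5227 of all 19351 genes. The 1 called below both stayed at 1 without E16.5 replicates 1 to 4 and became 11 without replicates 5 to 8. Over all genes these settings gave 228 and 582 below both. Of 19 lung epithelium genes 1 was called below both (5.26%, against 2.07%) and 0 above, with a list median of -0.01 for E12.5 minus E16.5. The 1 was Sftpc, a surfactant gene, which was below the lower quartile in all 8 arrays at E11.5 and E12.5, and at 8 to 12.73 at E16.5, which gave a contrast of -2.49 (SE 0.41, adjusted p = 0.00024).

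Of the 28 hepatocyte plasma protein genes 0 were called above or below both, and 2 below both without the liver-rich arrays. Alb, which encodes albumin, ran from 5.78 to 6.70 at E11.5, 8.30 to 13.32 at E12.5 and 11.53 to 13.22 at E16.5, with its E12.5 mean between the others. Of 32 liver enzymes 1 was called above both, Cyp7b1 (3.12%, against 4.64% of all genes). Of 18 liver transcription factors 1 was above (Gata4, 5.56%) and 2 below (11.1%, against 2.07% of all genes). The 2 were Nr1i2 and Ppara, each below the lower quartile in at least 7 of 8 E12.5 arrays. The lists of apolipoproteins, clotting proteins, erythroid cells, megakaryocytes, macrophages, Schwann cells, gut, and adrenal, gonad and kidney had 0 calls in either direction. Calls above both were 1 each for neurons (5%), cardiomyocytes (5.88%) and Hox genes (3.57%), near the 4.64% of all genes. Calls below both were 1 each for neurons (5%), cartilage and bone (5.56%), mesothelium (5.56%) and tendon (6.67%), against 2.07%. Of 38 oxidative phosphorylation genes 2 were below both (5.26%, against 2.07%), a count of 4, 3 and 7 under the scalings and of 1 to 4 with 1 array left out. They were the succinate dehydrogenase subunits Sdha and Sdhb, with differences of -0.05 and -0.03 from E11.5. Of 54 matrix genes 3 were above (Fbln1, Mfap2 and Fn1; 5.56%, near the 4.64% of all genes) and 4 below (Col4a1, Col4a2, Tnxb and Mfap5; 7.41%, against 2.07%). Fbln1, the matrix protein fibulin, ran from 8.42 to 9.26, 8.88 to 9.54 and 8.15 to 8.57, with 6 arrays above E11.5 and 8 above E16.5 (contrast 0.60, SE 0.10, adjusted p = 0.000137). Shares above both were near the 4.64% of all genes for chromatin regulators (2 of 34, 5.88%) and Notch genes (1 of 20, 5%), and 7.69% for myoblast fusion genes (2 of 26). Shares below both were 0 of 34, 2 of 20 (10%) and 1 of 26 (3.85%), against 2.07%. The 2 Notch genes, Jag2 and Nrarp, became 1, 2 and 2 under the scalings and 0 without the liver-rich arrays. They kept their calls in 9 and 6 of the 24 fits that left out 1 array.

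The balance of genes above and below both depended on how arrays were scaled. Of the genes called on either side 69.1% lay above, a share that was 57.7% after quantile normalization again, 53.7% after median centring and 34.1% after centring on the 75th percentile. That last scaling moved the median contrast by -0.06, and gave 429 genes above and 829 below. The 426 genes above and 326 below that were called under all 3 scalings as well include each of the 9 genes that passed both differences singly. With each of the 24 arrays left out in turn, 449 of the 897 and 161 of the 401 kept their call every time.

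**Figure D5:**
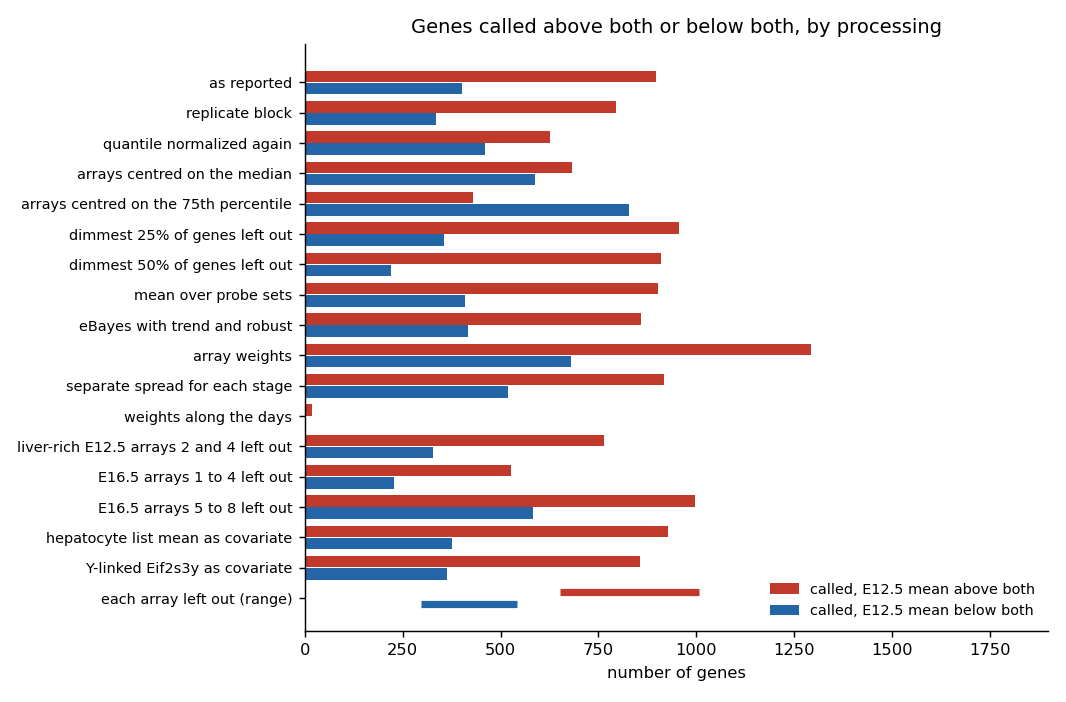
Number of genes (x axis) called above both (red) and below both (blue) in the fit as reported and under each alternative; the bottom lines span the counts with each array left out. The bars fall to 19 and 2 with weights along the days, and the order of the pair turns only with arrays centred on the 75th percentile (429 and 829).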

How the data were processed

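RNA from laser-captured tissue on 24 arrays (8 per stage) had been amplified and labelled with biotin, per the labels' protocols. The authors deposited RMA log2 values; Affymetrix Expression Console 1.1 and R 2.9.2 are named in the submitters' processing notes. Of 24200 probe sets, 20760 had 1 symbol in the platform annotation, 1140 several and 2300 none. For 804 genes with several, the probe set with the highest mean was kept. The number of arrays limits the precision.

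limma 3.58.1 (R 4.3.3) fitted 1 coefficient per stage to 19351 genes and tested 3 differences, two-sided, with Benjamini-Hochberg adjustment over all genes. On simulated data 95.5% of 200 genes changed 2-fold were recovered, and 6.37% of calls were false. The simulated E12.5 mean stood 2-fold from both other stages, whose means were equal. No called gene had so large a gap to its nearer stage, so these rates do not describe the called genes. Figures used Python 3.11.15 and matplotlib 3.10.9.

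The members, the 40 gene lists (1187 entries, 80 unmatched) and the rule for named genes were chosen with earlier results of these data known; the ribosome biogenesis list was written after these values were seen. Named were the 12 genes on each side with the largest gap to the nearer stage, 8 such genes above both and off the liver lists that were also called without E12.5 replicates 2 and 4, up to 3 called members per list, and genes that passed both differences. Others that are named were chosen after their values were seen. Alternatives were other scalings, filters, probe set means, variance models, weights, covariates, left-out arrays and a replicate block. The HNF1 and C/EBP motifs were not counted for liver genes, since neither of the 2 called had a promoter entry.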

Additional observations from a re-analysis of the deposited data

Results flagged for a closer look

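In 64 named genes, 192 groups of 8 arrays were examined, and in 18 of them the highest or lowest array stood apart by Dixon's test, its gap to the next array being large against the range. Chance gives about 1 in 20 such groups.

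Among genes called above both, the lowest E12.5 array of Sema3d was replicate 4, at 8.11 against 9.07 for the next. The highest E12.5 array of Nop16 was also replicate 4, at 10.27 against 9.81. At E11.5 replicate 6 of Cpm was highest, at 8.75 against 7.20, and replicate 3 of Gli2 was highest, at 9 against 8.40. Heatr1 had its lowest E11.5 value in replicate 1, at 8.50 against 9.10. At E16.5 replicate 5 was lowest for Socs2, at 6.35 against 7.6, and for Hsd3b6, at 5.59 against 6.14. Replicate 8 was highest at E16.5 for Myc, at 9.58 against 8.86, and for Gdf10, at 8.92 against 8.53. Myod1 was highest in E16.5 replicate 1, at 9.40 against 8.91, and Crabp2 in E16.5 replicate 6, at 9.52 against 8.47. Pax7 was lowest in E16.5 replicate 4, at 7.35 against 7.61.

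Among genes called below both, Rgs2 was lowest in E12.5 replicate 7, at 7.47 against 8.57, and Casd1 in E12.5 replicate 4, at 9.48 against 9.98. Atf3 was highest in E12.5 replicate 4, at 6.94 against 6.71. Prrx1 was lowest in E16.5 replicate 8, at 9.08 against 9.85, and Lyz1 in E16.5 replicate 5, at 7.45 against 7.85. Cpa3 was highest in E11.5 replicate 6, at 6.33 against 5.75.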

How the results depend on the processing

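The 2086 calls became 28 with weights along the days and 1283 without E16.5 replicates 1 to 4. The 897 genes above both became 429 with arrays centred on the 75th percentile, 19 with weights along the days and 526 without E16.5 replicates 1 to 4. The 401 below both became 829, 2 and 228 under the same 3 settings, 220 with the dimmest 50% of genes left out and 679 with array weights. With each array left out in turn, calls ran from 1603 to 2296, genes above both from 653 to 1008 and genes below both from 296 to 541. Genes above both in 1 test of both differences, 0 with all arrays, numbered 0 to 1 with an array left out, and 9 where each difference was adjusted on its own, chosen after seeing the data. The contrast of Tpm3, 0.20, reversed to -0.36 with the mean over probe sets. The cause of these changes was not tested. The labels do not say that replicate numbers pair the arrays. Deviations of same-numbered arrays correlated at -0.28 to 0.09 over 24 pairs, and 0 E12.5 arrays correlated best with their own number at E11.5. Low correlations alone do not show that same-numbered arrays shared no litter or batch. A replicate block gave 1846 calls, 795 above both and 336 below. Of 73 named genes above both 52 kept their call with every array left out, 52 under all 3 scalings and 62 without the liver-rich arrays, and of 38 below both 24, 35 and 28. Of the 401 genes below both, 103 were near background at E12.5.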
